A study of Mus musculus with 12 samples.

Results

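The comparison described here set KIT+ spermatogonia, the germ cells of the adult mouse testis that have started to differentiate, against RNA of the whole testis. It rests on the 3 arrays of sorted KIT+ cells and the 3 arrays of whole testes among the 12 arrays of the study, and it takes in every gene that could be measured, whether higher or lower in the sorted cells. The array carries probes for 36315 genes. A gene is called detected here where the scanner flagged its probe as well above background, and the 24694 genes detected throughout the KIT+ arrays, throughout the whole testes arrays or in both were tested.

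All mice were C57BL/6 and 10 to 11 weeks old. KIT+ cells were the fraction positive for both GFP and KIT, sorted from mice that carry the Ngn3-EGFP transgene, in which GFP outlasts the expression of NGN3 itself. Each KIT+ RNA came from a different mouse. The whole testes were those of wild-type littermates of Gfra1-EGFP animals, so the groups differed in genotype as well as in cell content, and only the KIT+ cells had been dissociated, stained and sorted. The study's other arrays, 3 of GFRα1+ cells (GFP+ cells of Gfra1-EGFP mice) and 3 of NGN3+ cells (GFP+/KIT− cells of Ngn3-EGFP mice, pooled from a pair of mice for each RNA), are used below only to set KIT+ values in context. Because KIT protein was the sorting criterion, Kit itself serves as a check of the labels.

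KIT is the receptor tyrosine kinase for stem cell factor, which Sertoli cells make. Under retinoic acid (RA), undifferentiated spermatogonia turn on Kit and Stra8, become type A1 spermatogonia, and pass through a fixed series of mitotic divisions before they enter meiosis as preleptotene spermatocytes. The adult testis around them consists largely of spermatocytes and haploid spermatids, with Sertoli cells inside the tubules and Leydig cells, peritubular myoid cells, vessels and macrophages outside them.

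Values are log2 levels relative to the 75th percentile of the same array, so that 0 is the level of that percentile. A ratio is the KIT+ mean minus the whole testes mean on this scale, with its standard error (SE) from limma, and a gene was called at a Benjamini-Hochberg adjusted p under 0.05. Levels of different genes come from different probes and are not compared with each other. For a gene that was not detected throughout the group with the lower signal, the fold change is given as a lower bound. In bulk RNA of the testis, fewer cells of a type and less RNA per cell cannot be told apart.

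The share of probes detected was 54.8% to 62.0% with KIT+ RNA and 54.8% to 57.6% with whole testes RNA. No spot was saturated. Spiked-in control RNA lay 4.32 to 4.47 (log2) above the 75th percentile on KIT+ arrays and 5.88 to 6.44 on whole testes, so the same level stood for different amounts of spike in the 2 groups. The KIT+ arrays all lay on a slide that held no whole testes array and had been extracted with another version of the scanner software. Slide, software version and group cannot be told apart within these 6 arrays. The GFRα1+ arrays, which lay on 2 of the 3 slides, allowed a fit with slide as a block, in which 9089 genes were higher and 8383 lower. Of these arrays only GFRα1+ replicate 3 shared the slide of the KIT+ arrays. The offset of that slide thus rests, for each gene, on this replicate against GFRα1+ replicates 1 and 2. Whole testes replicates 2 and 3 lay alone on slide 3, so the offset of slide 3 absorbed them. The ratios with slide as a block therefore rest on whole testes replicate 1 alone and on the GFRα1+ offset. A call lost in this fit can reflect those single arrays as well as the slide. This fit kept 8754 of the 10690 genes called higher below and 8083 of the 10265 called lower.

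Kit was high on the KIT+ arrays and low in whole testes. Its log2 level was 4.46, 4.68 and 4.52 on the 3 KIT+ arrays and 0.30, −0.27 and −0.26 on the 3 arrays of whole testes (probe at chr5:76052394-76052453, mm9). The groups did not overlap, and the log2 ratio was 4.63 ± 0.25 (SE, adjusted p = 2.15e-08 from limma), a 24.8-fold difference. Stra8, the RA-induced gene required for the entry into meiosis, stood at 7.07, 7.28 and 6.92 in KIT+ cells and at 3.69, 3.09 and 3.37 in whole testes (chr6:34889237-34889296, mm9). This is a 13.1-fold difference (log2 ratio 3.71 ± 0.23, adjusted p = 4.79e-08), again with no overlap. Both genes were also higher in KIT+ than in NGN3+ cells, by 2.58 for Kit (adjusted p = 3.65e-05) and 1.91 for Stra8 (adjusted p = 1.20e-04), and higher than in GFRα1+ cells, by 3.05 (adjusted p = 1.90e-06) and 1.53 (adjusted p = 1.59e-04).

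Across the array, 10690 genes were higher in KIT+ cells (43.3% of the genes tested) and 10265 were lower (41.6%), and 3739 were not called. For 10615 genes called higher and 10150 called lower, the KIT+ values did not overlap those of whole testes. At a log2 ratio of at least 1, 8184 genes were higher, and 8164 were lower at −1 or below. The large differences were more often losses: 1526 genes were at least 8-fold higher (log2 ratio of 3 or more), whereas 2967 were at least 8-fold lower. The median ratio over all genes tested was 0.06. Because so many genes were called, a list of genes is read below against these shares and this median. With 3 arrays against 3, an exact permutation test of a single gene cannot go below 0.1, and the calls rest on the spread that limma shares across genes and arrays.

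**Figure D1:**
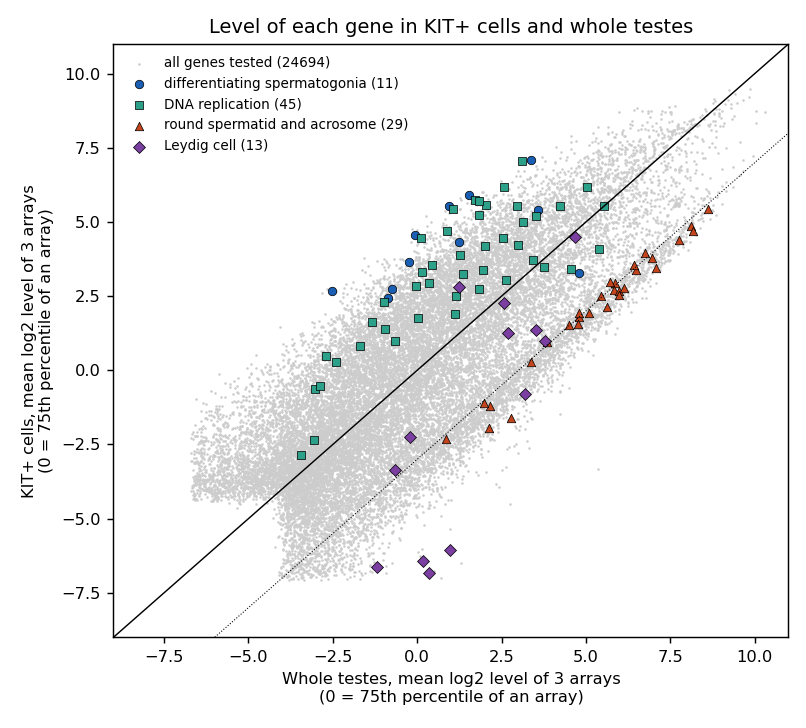
Mean log2 level of each of 24694 genes tested in whole testes (x axis) and KIT+ cells (y axis), with 0 at the 75th percentile of an array. Grey points are all genes and the solid line marks equal levels. Round spermatid genes (triangles) lie along the dotted line of an 8-fold lower level, while 4 steroid enzyme genes of Leydig cells (diamonds) lie far below it, the other Leydig cell genes range from −3.99 to 1.55 in ratio, and DNA replication genes (squares) lie mostly above the solid line.

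Genes of the spermatogonial lineage were prominent among those higher in KIT+ cells. Of the 11 genes listed for differentiating spermatogonia, 10 were higher and 1 was lower, with a median ratio of 3.71. The list was also high in the other sorted fractions, with median ratios to whole testes of 2.93 in NGN3+ and 3.46 in GFRα1+ cells. The median difference of KIT+ cells from NGN3+ cells was 0.58 and from GFRα1+ cells 0.15. Sohlh1 and Sohlh2, helix-loop-helix factors that drive spermatogonial differentiation, were 21.1-fold and 11.3-fold higher (log2 ratios 4.40 ± 0.17 and 3.50 ± 0.13). Sohlh1 stood at 5.88, 6.15 and 5.74 in KIT+ cells against 1.76, 1.32 and 1.48, and Sohlh2 at 2.69, 2.94 and 2.63 against −0.83, −0.78 and −0.66, without overlap in either gene. Dmrt1, a factor that holds germ cells back from meiosis, had a ratio of 3.89 ± 0.11, and the zinc finger factor Sall4 had 5.22 ± 0.16, the fourth highest ratio among genes detected on all 6 arrays. Other Sall4 probes had ratios of 1.24 and 5.07, so the probes of this gene differed in size. Rhox13, an X-linked homeobox gene of spermatogonia, had 3.11 ± 0.19.

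The exception was Dmrtb1 (DMRT6), a factor of late spermatogonia, with levels of 3.21, 3.11 and 3.48 in KIT+ cells and 4.58, 4.96 and 4.84 in whole testes (ratio −1.52 ± 0.27, adjusted p = 3.09e-04). With slide as a block its ratio was −1.44 (adjusted p = 0.0604). Within the sorted fractions Dmrtb1 was nonetheless higher in KIT+ than in GFRα1+ cells, by 4.70 (adjusted p = 1.27e-07).

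Most genes of undifferentiated spermatogonia were also above their whole testes level, although lower than in the undifferentiated fractions. Of 28 listed genes, 22 were tested, of which 15 were higher and 3 lower, with a median of 1.81 (1.49 with bounds in place of fitted ratios). Ret, T, Pax7, Shisa6, Tspan8 and Taf4b were not detected throughout either group. Lin28a, an RNA-binding protein that blocks let-7 maturation, stood at 3.37, 3.73 and 3.31 in KIT+ cells and −0.85, −0.93 and −0.85 in whole testes, 20.3-fold apart. Zbtb16 (PLZF), needed for spermatogonial self-renewal, had a ratio of 3.71 ± 0.14, Foxo1 3.65 ± 0.15, and Neurog3, the gene of the transgene's promoter, 3.83 ± 0.26. All 4 of these genes were lower in KIT+ than in GFRα1+ cells, by 1.23 for Lin28a and 2.39 for Zbtb16 (adjusted p = 1.47e-04 and 1.36e-07).

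Other members stood at or below the whole testes level. Etv5 and Id4, genes of the GDNF-responsive stem state, were at −1.30 ± 0.15 and −1.03 ± 0.12 relative to whole testes, and each was over 4 log2 units below its GFRα1+ level (−4.97 and −4.54, adjusted p = 7.51e-09 and 4.53e-09). Lhx1 had a ratio of −0.66. Nanos3, Bcl6b, Ddit4 and Eomes were not called. Gfra1 was detected on all 6 arrays at a low level, −3.32, −3.41 and −3.40 in KIT+ cells against −4.10, −4.04 and −4.05 (ratio 0.69 ± 0.13, adjusted p = 3.91e-04). This call was lost with slide as a block (0.66, adjusted p = 0.0595) and with normexp background correction (0.00, adjusted p = 0.994). Over the 22 genes the median difference from NGN3+ cells was −2.14 and from GFRα1+ cells −2.32.

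**Figure D2:**
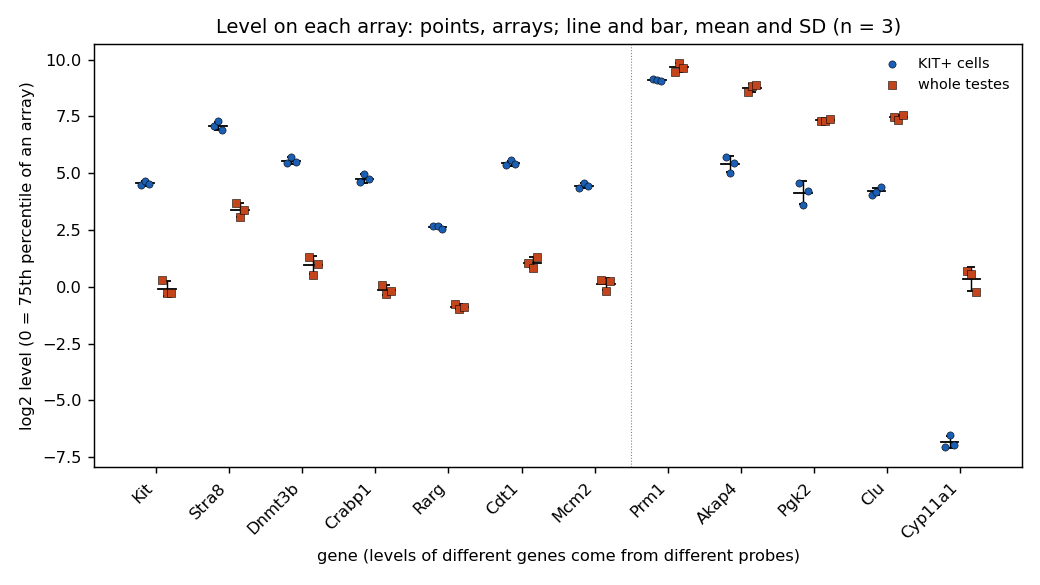
Log2 level of 12 genes on each of the 3 KIT+ arrays (circles) and the 3 whole testes arrays (squares), with the mean and SD of each group. The genes left of the dotted line were higher in KIT+ cells and those to its right were lower, except Prm1, whose 9.06 to 9.13 in KIT+ cells lay just under the 9.47 to 9.84 of whole testes and was not called.

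Retinoid genes went both ways. Vitamin A is oxidised to RA by retinol and retinaldehyde dehydrogenases, carried by cellular binding proteins, sensed by nuclear receptors of the RAR and RXR families and cleared by CYP26 enzymes. Of 22 listed genes, 20 were tested, of which 9 were higher (45%) and 9 lower (45%), with a median of −0.01. These shares lay near the 43.3% and 41.6% of all genes tested. Among receptors, Rarg stood at 2.66, 2.69 and 2.56 in KIT+ cells and −0.77, −0.99 and −0.91 in whole testes (11.5-fold, ratio 3.52 ± 0.15, adjusted p = 4.39e-09). Rarg was also listed among the undifferentiated genes, whose tested members all had lower means in KIT+ than in NGN3+ cells, by at least 0.65. Rarb was at least 7.3-fold higher by its brightest probe, while another of its probes had a ratio of −0.54 (adjusted p = 0.276). Rxrb had a ratio of 2.42 ± 0.11. Rara had levels of 2.03, 2.35 and 1.96 against 2.15, 1.76 and 1.86 and was not called (ratio 0.19, adjusted p = 0.296). Another Rara probe had a ratio of 1.81 (adjusted p = 2.71e-08), so the probes of this gene differed. Rxra and Rxrg were lower, at −1.75 and −1.44.

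The RA-binding protein gene Crabp1 showed the largest difference of the list. Its levels were 4.59, 4.95 and 4.74 in KIT+ cells and 0.08, −0.34 and −0.17 in whole testes, a 29.9-fold difference, and it was also above NGN3+ cells (1.45, adjusted p = 4.89e-05) and GFRα1+ cells (1.93, adjusted p = 1.06e-06). Crabp2 was higher by 1.23, the retinol-binding gene Rbp4 by 3.15, and Rdh10, a retinol dehydrogenase, was at least 4.9-fold higher. Retinaldehyde dehydrogenase genes were lower: Aldh1a1, known from Sertoli cells, at −3.66 ± 0.41, Aldh1a3 at −2.41 and Aldh1a2, known from spermatocytes, at −0.91 ± 0.11. Stra6, the retinol uptake receptor, was at least 4.3-fold lower.

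Of the RA-degrading enzymes, Cyp26a1 was at least 8.9-fold higher, with levels of −0.59, −0.24 and −1.13 in KIT+ cells against −3.26, −3.85 and −4.30. Cyp26b1 was not called (1.92, 2.04 and 1.95 against 2.29, 2.37 and 1.89, ratio −0.22, adjusted p = 0.200). It was however 3.40 above GFRα1+ cells and 1.78 above NGN3+ cells (adjusted p = 2.41e-08 and 1.49e-05). Cyp26c1 and Lrat were not detected throughout either group.

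Genes of DNA replication were mostly higher. All 45 listed genes were tested, of which 39 were higher (86.7%, against 43.3% of all genes) and 2 lower, with a median of 2.35 against 0.06. Their summed linear level in KIT+ cells was 301% to 388% of that in whole testes. Cdt1, which loads the MCM helicase onto origins, stood at 5.35, 5.56 and 5.40 against 1.04, 0.83 and 1.32 (20.8-fold), and the helicase subunit Mcm2 at 4.35, 4.56 and 4.44 against 0.28, −0.17 and 0.25 (20.1-fold). The other subunits Mcm4, Mcm6, Mcm3 and Mcm5 had ratios of 4.02, 3.97, 3.54 and 3.40, while Mcm7 had 1.16. The polymerase δ subunit Pold1 had 3.88, DNA ligase Lig1 3.59 and the sliding clamp Pcna 1.87. Lower were Rfc2, a clamp loader subunit whose KIT+ levels of 4.08, 4.07 and 4.10 lay below 5.23, 5.46 and 5.48 in whole testes (ratio −1.31 ± 0.11), and Chaf1a of the CAF-1 histone chaperone (−1.16). Tyms, Gins3, Rpa1 and Chaf1b were not called. Over this list the median difference of KIT+ cells from GFRα1+ cells was −0.05 and from NGN3+ cells 0.56.

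Because most of these genes were higher, their promoters were searched for the letters of an E2F site, TTTCCCGC or TTTGGCGC on either strand, in the 250 bases before the start (RefSeq, GRCm38.p6). Of the 42 promoters found for 36 of the genes, 6 (14.3%) held them, against 1.30% of all 32817 promoters and 2.05% of the 16659 promoters of genes tested. A match is a run of letters and was not measured as a binding site. Windows around the matches of Mcm5, Mcm6, Pola1 and Cdc6 are shown, 5′ to 3′ on the strand of the gene, with the matching letters in capitals.
Mcm5 (chr8:75109300-75109429, plus strand): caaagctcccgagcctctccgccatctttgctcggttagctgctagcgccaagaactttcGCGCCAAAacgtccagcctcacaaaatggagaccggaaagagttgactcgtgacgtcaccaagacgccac
Mcm6 (chr1:128359706-128359835, minus strand): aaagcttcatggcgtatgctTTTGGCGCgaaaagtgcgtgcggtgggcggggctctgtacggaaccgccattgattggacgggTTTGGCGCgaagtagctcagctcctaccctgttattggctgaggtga
Pola1 (chrX:93632224-93632353, minus strand): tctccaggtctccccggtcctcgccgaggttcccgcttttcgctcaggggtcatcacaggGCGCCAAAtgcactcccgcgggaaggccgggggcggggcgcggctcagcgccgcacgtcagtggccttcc
Cdc6 (chr11:98907953-98908082, plus strand): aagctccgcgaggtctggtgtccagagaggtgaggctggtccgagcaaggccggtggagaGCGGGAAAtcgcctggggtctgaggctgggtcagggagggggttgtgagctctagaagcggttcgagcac
Mcm6 held the letters at 2 places. Pola1 (DNA polymerase α) and Cdc6 (origin licensing), the other members shown, had ratios of 2.70 and 2.51.

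Most mitotic genes were higher too. Of 39 tested, 30 were higher (76.9%) and 4 lower, with a median of 1.22. Cenpa, the centromeric histone H3 variant, led with 3.85, 4.23 and 3.87 in KIT+ cells against 0.11, −0.38 and 0.18 in whole testes (16.1-fold). Cyclin A2 (Ccna2) had a ratio of 3.63, the cytokinesis scaffold Anln 3.12, the spindle motors Kif4 and Kif11 3.07 and 2.56, and the checkpoint genes Mad2l1 and Bub1b 2.98 and 2.55. Cdk1, Plk1, Bub1, Pttg1 and Cdc25c were not called, and Aurkb was not detected throughout either group. Kif2c, a microtubule depolymerase, stood at 3.70, 3.29 and 3.64 in KIT+ cells and 6.40, 6.31 and 6.45 in whole testes (ratio −2.84 ± 0.18), Ccnb2 and Aurka had −0.77 and −0.55, and Cenpf was at least 3.6-fold lower.

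The cell cycle homology region, read here as the letters TTTGAA on either strand, occurred in 14 of the 37 promoters of these genes (37.8%), against 16% of all promoters and 11.5% of those of genes tested. Only the motif's letters were looked for, and 6 letters are short enough to recur often. Windows with the match in capitals are shown for Kif11, the separase gene Espl1 (ratio 1.54), topoisomerase Top2a (1.78) and Tex14 (1.43), which keeps the bridges between sister germ cells open.
Kif11 (chr19:37376303-37376381, plus strand): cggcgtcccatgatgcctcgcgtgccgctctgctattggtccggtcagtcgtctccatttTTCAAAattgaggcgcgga
Espl1 (chr15:102296206-102296292, plus strand): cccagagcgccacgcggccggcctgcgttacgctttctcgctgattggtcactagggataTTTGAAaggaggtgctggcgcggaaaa
Top2a (chr11:99024249-99024378, minus strand): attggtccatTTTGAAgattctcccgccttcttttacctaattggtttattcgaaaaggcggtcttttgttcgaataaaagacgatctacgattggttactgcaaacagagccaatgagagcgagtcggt
Tex14 (chr11:87404828-87404957, plus strand): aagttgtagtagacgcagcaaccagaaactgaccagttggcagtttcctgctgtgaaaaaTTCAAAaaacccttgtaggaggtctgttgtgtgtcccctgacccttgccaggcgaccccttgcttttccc
In the windows of Kif11 and Espl1 the letters lay at −19 and −27 relative to the start, and in those of Top2a and Tex14 at −179 and −177. The bases searched for Top2a held the letters again past its window, nearer the start, so −179 is only its farthest match. Of the other motifs searched, the E-box CACGTG was in 6 of 42 replication promoters (14.3%) and 3 of 37 mitosis promoters (8.11%), against 7.79% of those of genes tested. The cyclic AMP response element TGACGTCA, looked for because of its role in spermatids, was in 1 of 29 promoters of round spermatid genes (3.45%), against 2.32% of those of genes tested.

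Regulators of G1 went both ways. Of 20 genes tested, 12 were higher and 7 lower, with a median of 2.01 (1.72 with bounds). E2f1, the transcription factor of S phase genes, stood at 3.92, 4.21 and 3.95 in KIT+ cells against −0.03, −0.36 and 0.09 (17.4-fold). Ccnd1 and Ccnd2 had ratios of 3.58 and 3.29, Ccne1 2.33 and Cdk6 was at least 3.2-fold higher. Ccnd3, the third D cyclin, was lower (−1.05). Against whole testes the CIP/KIP inhibitors Cdkn1c and Cdkn1b were lower, at −2.86 ± 0.12 and −1.22 ± 0.21, and Cdkn1b was also 3.84 below NGN3+ cells (adjusted p = 1.18e-06). The INK4 genes Cdkn2c and Cdkn2d, with known roles in spermatocytes, were at −2.04 and −1.37, whereas Cdkn2a, which encodes p16 and ARF, was 14.3-fold higher (4.74, 5.17 and 4.87 against 1.27, 0.63 and 1.35). The pocket protein gene Rbl2 was at least 10.1-fold lower, and its relatives Rb1 and Rbl1 had ratios of 1.78 and 1.24.

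Genes that write, read or erase DNA methylation and H3K9 methylation were mostly higher. Of 22 genes, 16 were higher and 5 lower, with a median of 1.79. Dnmt3b, a de novo DNA methyltransferase, stood at 5.44, 5.72 and 5.48 in KIT+ cells and 1.32, 0.53 and 1.0 in whole testes (24.2-fold), and the maintenance enzyme Dnmt1 at 2.95, 3.06 and 3.01 against −0.97, −1.59 and −1.34 (19.8-fold). Dnmt3b was above NGN3+ and GFRα1+ cells by 0.56 and 0.91 (adjusted p = 0.0367 and 0.00117), and Dnmt1 was above NGN3+ cells by 0.87 (adjusted p = 0.00158). Over the whole list, however, the median difference of KIT+ cells was 0.15 from NGN3+ cells and −0.13 from GFRα1+ cells. Uhrf1 and Hells, which act with DNMT1, had ratios of 1.83 and 3.48, and the H3K9 methyltransferase genes Setdb2 and Suv39h1 had 3.01 and 2.38. The cofactor gene Dnmt3l was lower (−2.42 ± 0.18), as were the demethylase genes Kdm4d and Kdm3a (−4.52 and −1.53). Of the TET dioxygenase genes, Tet1 was lower (−1.57) and Tet2 at least 3.3-fold lower. Tet3 was at least 9.2-fold higher by its brightest probe, but another of its probes, with a ratio of −0.44, was not called (adjusted p = 0.0721).

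Genes of meiotic entry and prophase did not move as a block. All 40 were tested, 20 higher (50%) and 14 lower (35%), with a median of 0.26. Genes that act at or before double-strand break formation were among the higher ones: Rec114 stood at 1.93, 2.19 and 2.0 in KIT+ cells against −1.39, −2.10 and −1.82 (14.1-fold), Mei4 was at least 3.1-fold higher, and Mei1 and Iho1 had ratios of 2.19 and 1.87. The meiotic recombinase gene Dmc1 had 1.95 and the X-linked Tex11 2.87, and the cohesin gene Rad21l was at least 2.2-fold higher. Spo11, which encodes the enzyme that makes the breaks, was lower (−1.60, −2.01 and −1.66 against 0.84, 1.11 and 0.86, ratio −2.69 ± 0.24). Msh4, Meiob, Sycp2, Syce1 and Rec8 were lower too, at −2.25, −1.96, −1.52, −1.44 and −1.39. Of the synaptonemal complex genes, Sycp3 was 0.99 higher by its brightest probe (0.09 by another, adjusted p = 0.582) and Sycp1 0.39. The Sycp1 call was lost when the percentile was taken over the probes detected on all 12 arrays (0.12, adjusted p = 0.216). Stra8, Mei1 and Iho1 were the members of this list named here that stood above both other sorted fractions, with Mei1 1.40 above NGN3+ and 1.56 above GFRα1+ cells (adjusted p = 2.10e-05 and 1.52e-06) and Iho1 0.98 and 0.84 above them (1.11e-04 and 9.03e-05).

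Genes of the piRNA pathway, which silences transposons in germ cells, differed by member as well. Of 22 tested, 13 were higher and 6 lower, with a median of 1.34. Piwil4, the PIWI gene known from fetal germ cells, was at least 4.3-fold higher, Piwil2 had a ratio of 1.94 and Piwil1, known from pachytene spermatocytes and round spermatids, −0.86. The trimming enzyme gene Pnldc1 stood at 3.35, 3.61 and 3.34 against 0.20, 0.13 and 0.25 (9.4-fold), and Mov10l1, Tdrkh and Asz1 had 2.76, 2.33 and 2.11. Tdrd6, Tdrd7, Gtsf1 and Mael were lower, at −3.23, −2.15, −2.11 and −1.48. Dazl, a translational regulator of germ cells, was 8.0-fold higher, whereas the pan-germ-cell helicase gene Ddx4 was not called (4.73, 4.84 and 4.62 against 4.67, 5.29 and 5.16, adjusted p = 0.0861).

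**Figure D3:**
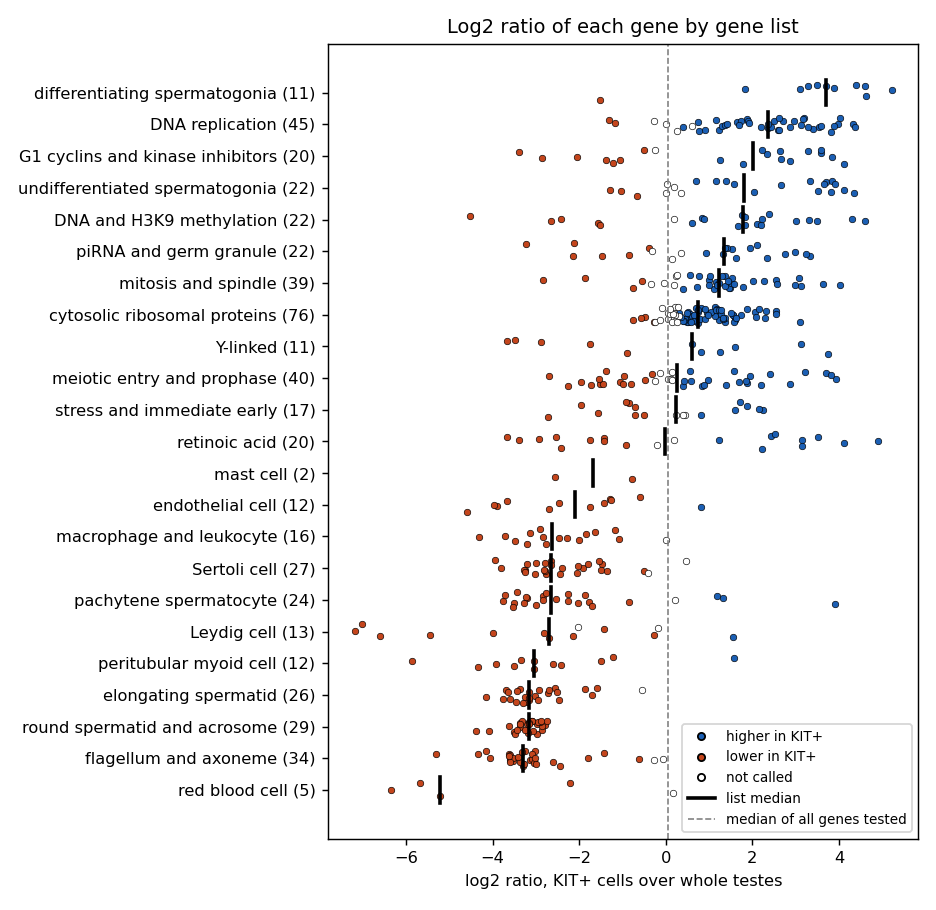
Log2 ratio of KIT+ cells over whole testes for each gene tested of 23 lists, with the number of genes tested in brackets. Points are genes, black bars list medians and the dashed line the median of all genes (0.06). The differentiating list has its median at 3.71 and DNA replication at 2.35, while round spermatid, elongating spermatid and flagellum lists lie at −3.17, −3.17 and −3.29.

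Genes of later germ cells were lower in KIT+ cells and remained measurable there. Of 24 genes listed for pachytene spermatocytes, 20 were lower and 3 higher, with a median of −2.65. Pgk2, the testis form of phosphoglycerate kinase, stood at 4.58, 3.58 and 4.24 in KIT+ cells and 7.31, 7.29 and 7.41 in whole testes. Cyclin A1 (Ccna1) had a ratio of −3.75, the chaperone gene Hspa2 −2.83 and Ybx2 −2.85. The genes that went the other way were Tex19.1, which acts against transposons and is known from spermatogonia too (3.90), Tdrd5 (1.32) and Ovol1 (1.17, or 0.89 with slide as a block, adjusted p = 0.0580).

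Every one of the 29 round spermatid and acrosome genes was lower, within the narrow range of −4.38 to −2.75 and with a median of −3.17, which is 11.1% of the whole testes level. Izumo1, the sperm protein that binds the egg, stood at −0.93, −1.61 and −1.08 against 2.0, 2.20 and 2.29, and Spaca1 of the acrosome at 3.02, 2.28 and 2.84 against 5.63, 6.01 and 5.84. All 29 were detected on each of the 3 KIT+ arrays. Their summed linear level was 192 to 315 on KIT+ arrays and 2203 to 2452 in whole testes (7.85% to 14.3%), beside 141 to 240 in NGN3+ cells and 7.76 to 10.5 in GFRα1+ cells. Replicate 2 was the lowest of the KIT+ arrays in these sums.

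Elongating spermatid genes (25 of 26 lower, median −3.17) and flagellar genes (32 of 34 lower, median −3.29) followed the same pattern, at 18.9% to 29.6% and 9.15% to 16.8% of the summed whole testes level. Akap4 of the fibrous sheath stood at 5.70, 5.0 and 5.45 against 8.56, 8.84 and 8.90, and the axonemal dynein gene Dnaic2 had a ratio of −5.30. The exception was Prm1, the protamine that packs sperm DNA, with 9.13, 9.11 and 9.06 in KIT+ cells and 9.47, 9.84 and 9.65 in whole testes. The arrays did not overlap, and the ratio of −0.56 ± 0.26 was not called (adjusted p = 0.0644). Called or not depended on the fit: −0.56 was called when only the 6 arrays were fitted (adjusted p = 0.00488), −1.35 with slide as a block (0.00706), and with quantile normalization the ratio was 0.06 (0.836). Prm2, Tnp1 and Tnp2, likewise among the brightest spermatid genes, had −1.60, −1.71 and −1.88. Prm1 was 5.26 above GFRα1+ cells (adjusted p = 4.17e-08) and 0.18 from NGN3+ cells (adjusted p = 0.654). How far RNA of other cells in the sorted fraction contributed to these levels was not tested.

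**Figure D4:**
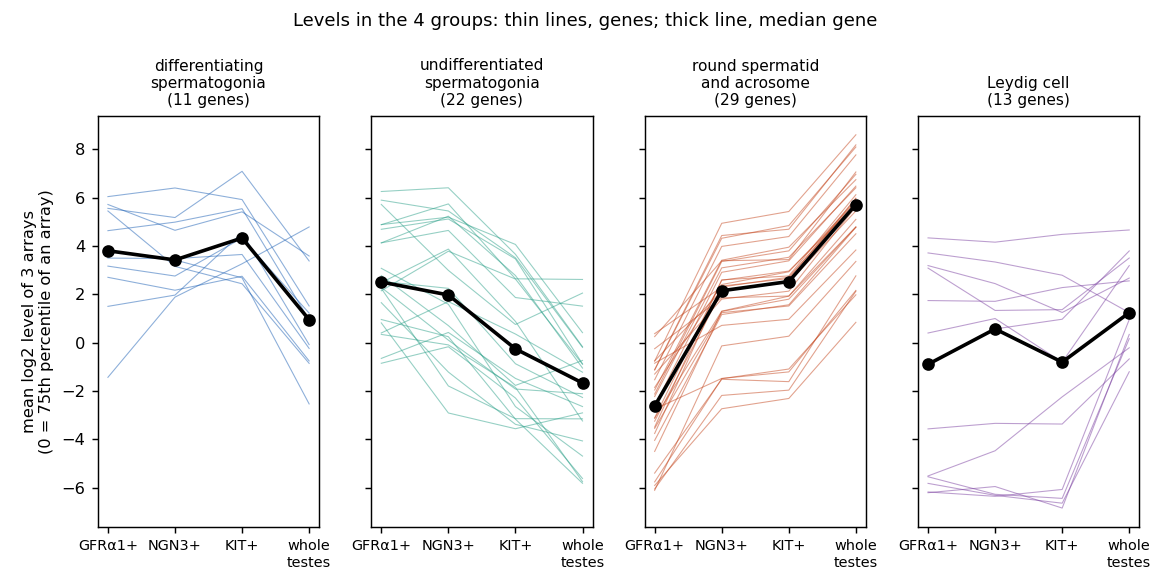
Mean log2 level of 4 gene lists in GFRα1+, NGN3+ and KIT+ cells and whole testes. Thin lines are genes and the thick line is the median gene. Round spermatid genes lie close together in NGN3+ and KIT+ cells, far above GFRα1+ cells and about 3 log2 units below whole testes, whereas undifferentiated genes fall from NGN3+ to KIT+ cells. Leydig genes divide into a group near the bottom of the scale in all sorted cells and a group that is not.

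Several enzymes and structural proteins exist as a somatic form and as a testis form, the latter often an intronless copy used when the X chromosome is silent in meiosis. In 16 of the 26 pairs in which both forms were tested, the somatic form was higher and the testis form lower in KIT+ cells. Taken separately, 18 somatic forms were higher and 5 lower, and 23 testis forms were lower and 2 higher. Pgk1 stood at 3.01, 3.30 and 3.17 in KIT+ cells against 2.08, 1.75 and 1.92 (ratio 1.25), opposite to Pgk2 (−3.20). Likewise Gapdh and Gapdhs had 1.79 and −3.17, the centrins Cetn2 and Cetn1 2.86 and −3.28, the oxidase subunits Cox8a and Cox8c 2.69 and −3.54, the antizymes Oaz1 and Oaz3 2.76 and −3.22, and Ccna2 and Ccna1 3.63 and −3.75.

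Other pairs did not. Ldha and Ldhc, the lactate dehydrogenases, were both lower (−2.90 and −2.26), as were Eno1 and Eno4 (−1.36 and −2.79) and the glycerol kinases Gk and Gk2 (−4.77 and −3.36). The ADP/ATP carriers were reversed: Slc25a4 stood at 1.75, 1.70 and 1.61 in KIT+ cells against 3.70, 3.16 and 3.30 (ratio −1.70), and its testis relative Slc25a31 at 2.36, 2.48 and 2.29 against 0.43, 0.52 and 0.33 (1.95). Cstf2 and Cstf2t, forms of a polyadenylation factor, were both higher (2.65 and 1.53), and Rbmxl2 was not called. By X linkage, 7 of 12 pairs with an X-linked and 9 of 14 with an autosomal somatic form showed this pattern. A probe of either form may bind the other where their sequences are alike, and this was not tested.

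**Figure D5:**
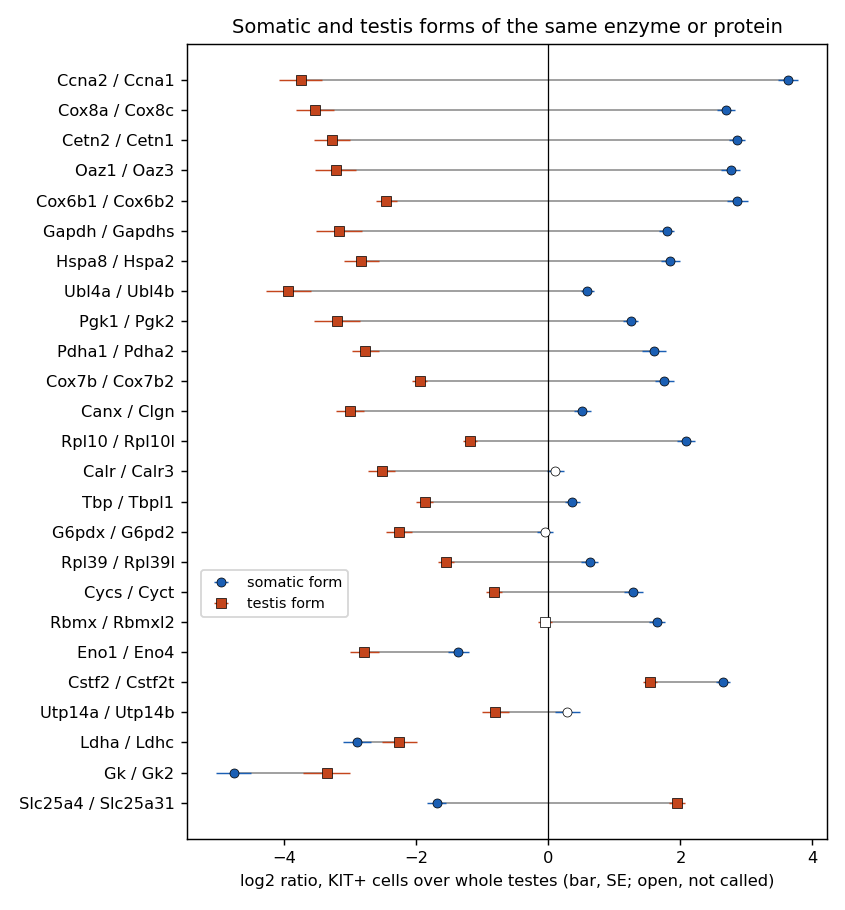
Log2 ratio of KIT+ cells over whole testes for 25 of the 26 pairs of a somatic form (circles) and a testis form (squares), with SE bars and open symbols for genes not called. Most circles lie right of 0 and most squares left of it. The ADP/ATP carriers Slc25a4 and Slc25a31, at the bottom, are reversed.

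Markers of the somatic cells of the testis were lower in KIT+ cells, by amounts that differed among and within cell types. Of 27 Sertoli cell genes tested, 25 were lower and none higher (median −2.65, or −2.44 with bounds), and their summed level was 103 to 127 on KIT+ arrays and 550 to 651 in whole testes. Clu, a secreted chaperone, stood at 4.04, 4.16 and 4.38 against 7.45, 7.35 and 7.57, and Kitl, the gene of the KIT ligand, was at least 5.6-fold lower. Sox9 and Wt1 had ratios of −2.76 and −1.92, and Fshr was at least 5.1-fold lower. Gdnf and Krt18 were not called, and Amh was not detected throughout either group. Over this list the summed level of 104 to 145 in NGN3+ and 114 to 124 in GFRα1+ cells lay near that of KIT+ cells.

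Leydig cell genes included some of the largest losses. Of 13 tested, 10 were lower, 1 was higher and 2 were not called. The steroid synthesis genes Cyp11a1, Hsd3b1, Hsd3b6 and Hsd17b3 were detected on none of the KIT+ arrays and were at least 35.3-fold, 54.0-fold, 31.2-fold and 12.1-fold lower. Cyp11a1, whose enzyme makes the first step from cholesterol, had levels of −7.04, −6.53 and −6.95 in KIT+ cells and 0.71, 0.56 and −0.24 in whole testes. Hsd3b1 varied among the whole testes arrays (2.04, 1.1 and −0.27), and without replicate 3 its fitted fold was 200 in place of 131. The other 9 genes tested were detected on all KIT+ arrays, among them the steroid synthesis genes Cyp17a1 (ratio −2.14) and Star (−2.70), which carries cholesterol into mitochondria, and the factor gene Nr5a1 (−2.83). Scarb1, a lipoprotein receptor gene, had −0.28, and Por, which encodes the reductase of all microsomal P450 enzymes, was higher (1.55). The summed level of the list was 39.2 to 47.3 in KIT+ cells against 72.4 to 91.1 in whole testes. Most of the KIT+ sum came from Fdx1 (mean level 4.48 against 4.67, not called), Por (2.79) and Scarb1 (2.28). The sum therefore does not measure the genes that were lost.

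In the list of peritubular myoid cells 11 of 12 genes were lower (median −3.05) and the summed level was 18.4 to 23.2 against 180 to 201. Acta2, smooth muscle actin, stood at −0.66, −0.93 and −1.78 against 3.37, 3.06 and 3.25, and the matrix gene Dcn had −5.86, whereas Col1a1 was higher (1.58). Endothelial genes were lower in 11 of 12 cases (median −2.11, −1.79 with bounds). Esam was at least 21.4-fold lower, and Egfl7, known also for the microRNA in its intron, was higher (0.82). With slide as a block, 7 endothelial genes were lower and none higher. Macrophage and leukocyte genes were lower in 15 of 16 cases (median −2.63, −2.15 with bounds), with a summed level of 31.5 to 48.3 against 312 to 333, and Mrc1, Tyrobp and C1qc were at least 18.3-fold, 6.7-fold and 8.2-fold lower. The brightest of these on KIT+ arrays was Aif1, with 5.05, 4.46 and 4.80 against 7.95, 7.85 and 7.92. Aif1 and the integrin gene Itgam (mean 3.32 against 6.22) made up most of the macrophage and leukocyte sum in both groups. Another Itgam probe was called the opposite way. Most of the myoid sum likewise came from Actg2 (mean 3.67 against 7.01), so these sums say little about the other members. Aif1 and the myoid gene Actg2 were 6.19 and 5.77 above GFRα1+ cells (adjusted p = 1.81e-08 and 1.24e-08), inside the range of 1.54 to 6.41 of the round spermatid genes for the same difference.

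Mast cells also carry KIT. Of 8 mast cell genes, Cma1, Cpa3, Mcpt4, Tpsab1, Fcer1a and Ms4a2 were not detected throughout either group, and the remaining Hdc and Tpsb2 were lower in KIT+ cells (−2.56 and −0.79). Red blood cell genes were lower in 4 of 5 cases. The globin gene Hba-a2 stood at −2.69, −2.76 and 1.05 in KIT+ cells against 4.46, 3.99 and 4.20, so that KIT+ replicate 3 stood apart. Its fold of 51.5 was 123 without that array, and 33.7 and 32.9 without KIT+ replicates 1 and 2. Hba-a1 and Hbb-bt, which were not detected on all KIT+ arrays, were at least 51.8-fold and 36.5-fold lower.

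On the sex chromosomes, 408 of 822 X-linked genes tested were higher (49.6%) and 322 lower (39.2%). Single autosomes ranged from 42.6% to 51.5% higher, and 47.1% of all 17070 autosomal genes were higher, so the X share lay within the spread of the autosomes. The median X-linked ratio of 0.34 also lay within theirs, from −0.06 to 0.49. The upper quartile of the X-linked ratios, 2.14, was above that of every autosome, of which the highest was 1.86. Of 22 Y-linked genes, 6 were higher and 16 lower. The listed Y genes divided by what they are known for. Rbmy, an RNA-binding protein gene of spermatogonia, stood at 6.65, 6.82 and 6.72 against 3.23, 2.71 and 3.03 (13.4-fold), and Uba1y, Usp9y, Ddx3y, Uty and Eif2s3y had 3.13, 1.60, 1.25, 0.82 and 0.61. Another Uba1y probe had 0.79. The spermatid genes Ssty1, Sly and Ssty2 had −3.68, −3.48 and −2.89, and Zfy2 and Zfy1 −1.75 and −0.90. Rbmy, Ssty1, Ssty2 and Sly are multicopy genes, and their probes may sum over copies.

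Housekeeping genes were mostly higher, and handling genes went both ways in shares near those of all genes tested. Of 76 cytosolic ribosomal protein genes 56 were higher (73.7%) and 4 lower, with a median of 0.73 and ratios from −0.76 to 3.09, and their summed level was 140% to 172% of that in whole testes. Rpl36a, Rpl10a and Rpl14 led with 3.09, 2.54 and 2.54. Many ribosomal protein genes have near-identical pseudogene copies, to which these probes may also bind. The 17 stress and immediate early genes tested, which can respond to dissociation, split into 6 higher (35.3%) and 8 lower (47.1%), with a median of 0.24. Among all genes tested, 43.3% were higher and 41.6% lower. Jund had a ratio of 2.25, Egr1 0.82 and Klf4 −1.95, Fos was not called and Ier3 was at least 2.9-fold lower. With slide as a block, 5 of these genes were lower. Hsph1 was higher by its brightest probe (1.71) and lower by another (−1.12). Only the KIT+ cells had been dissociated, and the part of handling in these values was not tested.

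The 20 genes with the highest ratios among those detected on all 6 arrays ran from 4.69 to 5.42, and few of them belong to the lists above. Sertad4 led with 2.71, 2.90 and 2.65 in KIT+ cells against −2.09, −3.13 and −2.79 in whole testes (42.8-fold). Lhx8, a LIM homeobox factor best known from oocytes, followed with 2.58, 2.91 and 2.33 against −2.66, −3.11 and −2.66 (42.7-fold), and it also stood 1.74 above NGN3+ and 2.46 above GFRα1+ cells (adjusted p = 7.79e-05 and 1.21e-06). The forkhead gene Foxn4 had 2.90, 3.14 and 2.64 against −2.14, −2.26 and −1.93 (32.1-fold), 2.45 and 2.47 above the same fractions (7.25e-06 and 7.05e-07). The nucleoside transporter gene Slc29a4 (ratio 5.08) and the potassium channel gene Kcnj4 (4.98) were likewise above both.

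Other leading genes varied in how they compared with the undifferentiated fractions. Dlk1, an imprinted gene of a Notch-like ligand, stood at 3.63, 4.04 and 3.65 against −1.70, −1.78 and −1.23 (40.6-fold) and differed by −0.04 from NGN3+ cells (adjusted p = 0.895). Sall4, Garem2 and Prtg were lower in KIT+ than in both other fractions, with differences from GFRα1+ cells of −1.12, −1.23 and −0.59. The MAP kinase phosphatase gene Dusp9 (5.02) was 1.16 above NGN3+ cells (adjusted p = 6.78e-04). The helix-loop-helix gene Ascl2 had 4.74 and stood 1.17 above NGN3+ and 0.94 above GFRα1+ cells (adjusted p = 2.19e-04 and 3.03e-04). Mvd of the mevalonate pathway had 4.74, and Myh6, the cardiac myosin heavy chain gene, 4.69 with levels of 5.48, 5.81 and 5.43 in KIT+ cells. These genes were chosen for their ratio to whole testes, and the differences from the other fractions rest on the same KIT+ arrays.

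Among genes that were not detected on all whole testes arrays, the homeobox genes Dmbx1 and Dlx1 had the highest bounds. Dmbx1 was at least 46.5-fold higher (1.22, 1.57 and 1.59 in KIT+ cells) and Dlx1 at least 29.0-fold. Dmbx1 and Dlx1 were also above NGN3+ cells, by 2.46 and 1.86 (adjusted p = 2.51e-04 and 1.23e-04). Also among the 15 highest bounds were the hexose transporter gene Slc2a6 (24.1-fold or more), the protease inhibitor gene Serpine2 (23.2), the oxygen sensor gene Egln3 (22.5), the homeobox gene Phox2a (20.6) and Arhgef26 (20.3), the last of which stood 3.34 above GFRα1+ cells (adjusted p = 2.71e-07).

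At the other end, the 20 lowest ratios ran from −8.68 to −4.68. Jak3 was lowest, with −3.02, −3.18 and −3.79 in KIT+ cells and 5.75, 5.94 and 4.37 in whole testes (probe at chr8:74214085-74214144, mm9). Another Jak3 probe had a ratio of −2.38. In the RefSeq annotation (GRCm38.p6) Jak3 spans chr8:71676383-71690577, and Insl3, a hormone gene of Leydig cells, lies within that span at chr8:71689252-71690577. Whether this probe reads Insl3 transcripts was not tested. Kallikrein genes were also in the group, Klk1b27 at −6.16, Klk1b16 at −5.41 and Klk1b5 at −4.68, members of a family so alike that their probes may share transcripts.

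The other low genes included matrix and vessel genes (Dcn −5.86, Ccn2 −5.16, Sparcl1 −5.04 and Mgp −5.32, the last −3.51 with an adjusted p of 0.230 with slide as a block) and genes of haploid germ cells or cilia (Ccdc38 −5.11, Dydc1 −4.74, Prps1l1 −4.71, Pabpc6 −4.98 and Dnaic2). Among genes that were not detected on all KIT+ arrays, Bhmt, a methyltransferase that turns homocysteine into methionine, was at least 127-fold lower (−3.75, −5.23 and −4.53 against 3.15, 3.35 and 1.75). Vcam1, an adhesion molecule, was at least 39.2-fold lower, and the endothelial factor Sox17 at least 38.4-fold, with a fitted ratio of −2.29 (adjusted p = 0.0737) with slide as a block. Serpina3g, Gimap3 and Ctla2a, genes known from leukocytes, were at least 29.5-fold, 26.6-fold and 28.1-fold lower. The spermatid gene Speer4e (68.6-fold lower or more) belongs to a multicopy family whose members may share its probe.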

How the data were processed

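RNA of sorted cells and of whole testes was labelled with Cy3 and hybridised to Agilent 1-colour mouse arrays, 3 per group. The authors extracted spot intensities with Agilent Feature Extraction (file headers name 10.7.1.1 for the KIT+ arrays and 10.7.3.1 for the whole testes, the submitters' processing notes 10.7.3.1) and compared groups in GeneSpring by t-tests, corrected after Benjamini and Hochberg. The values used here are the log2 table the authors deposited. Set against the processed signal, an intensity on a linear scale that the authors deposited for each array, it is its log2 minus the 75th percentile of that array, and genes were not centred. The medians of the KIT+ columns were −3.50, −3.64 and −3.62, those of the whole testes columns −3.46, −3.45 and −3.49, and the 75th percentile lay at an intensity of 637 to 701 and 401 to 447. Flags for background, saturation and outliers came from the scanner files.

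The files name 55681 probes, of which 26413 were renamed through RefSeq accessions (GRCm38.p6), 3859 by symbol and 735 by synonym, and 24674 kept their name. Coordinates of probes are those of the files (mm9). Each gene was represented by its brightest probe, by the mean of the 12 arrays. All 12 arrays entered 1 fit with limma 3.58.1 (lmFit and eBayes, R 4.3.3), with the contrast of KIT+ over whole testes and Benjamini-Hochberg adjustment over all genes tested. Tests were limited to genes detected (flagged as well above background) on every KIT+ array or every whole testes array. For 2211 tested genes dim in whole testes and 2239 dim in KIT+ cells the fold is a bound, in which each array of the dim group counted with the lowest level of any detected probe, or with its own level if that was higher. Differences from NGN3+ and GFRα1+ cells are other contrasts of the same fit, and ratios of these fractions to whole testes share the whole testes arrays. The number of arrays limits the precision.

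The comparison, the 23 lists (570 genes), the 27 isoform pairs and the motifs were chosen with earlier results of these data known. The text names the 20 highest and 20 lowest ratios, the 15 highest bounds each way, Kit, Stra8, up to 8 members per list by adjusted p, the pairs, and other list members where a description needs them. A few genes of this rule are not reported here. Lists are described by counts and medians, with no test of the list. A list's summed level is the sum of its members' linear levels, relative to the 75th percentile. Alternatives were other scalings (quantile, and the percentile over the probes detected on all 12 arrays), the scanner values, normexp background correction (offset 50), other filters and probe rules, only the 6 arrays, slide as a fixed or random block, a replicate block, the methods' t-test and leaving out each array. The fit was tested on simulated data.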

Additional observations from a re-analysis of the deposited data

How the results depend on the processing

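Over all settings run, genes higher numbered 8862 to 11292 and genes lower 8262 to 11666, each within 1.5 times the reported count. Kit stayed at 4.15 to 4.82 (highest adjusted p 2.06e-04) and Stra8 at 3.15 to 3.97 (3.39e-04). The median ratio of all genes was 0.13 with quantile normalization, −0.215 with the percentile over the probes detected on all 12 arrays, −0.065 with normexp and −0.10 with no filter on dim probes, against 0.06, so ratios near 0 depend on the scaling. The share of X-linked genes higher was 46.1% with that percentile, 40.7% with no filter and 46.0% with slide as a fixed block. Leaving out each array gave 10254 to 10521 genes higher, 9851 to 10192 lower, medians of 0.03 to 0.08, X-linked shares of 48.2% to 49.3%, Kit at 4.53 to 4.82 and Stra8 at 3.56 to 3.86. It changed no list count by over 1.5 times.

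Replicate numbers did not pair the samples: correlations of same-numbered arrays' deviations were −0.07, −0.12 and −0.03. With a replicate block 10521 genes were higher and 10215 lower, Kit at 4.63 (limma, adjusted p = 7.81e-05), and of the named genes Cdkn1a lost and Prm1 gained its call. The methods' t-test gave 10434 higher and 10061 lower after Benjamini-Hochberg.

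Single genes reversed as follows, none of them called both ways except Hsph1 and Tbp: Rbmxl2 at 0.077 and Prm1 at 0.060 with quantile normalization; Calr at −0.17, Rara at −0.080 and Slc4a1 at −0.11 with the percentile over the probes detected on all 12 arrays; Rbmxl2 at 0.18, G6pdx at 0.034, Hsph1 at −0.92 and Slc4a1 at −0.11 with normexp; Tbp at −0.32 with the mean of all probes; Ddx4 at 0.31, Rara at −0.20, Slc4a1 at −0.36 and Utp14a at −0.078 with slide as a fixed block; and Calr at −0.036 without whole testes replicate 1. With slide as a block 13 of 318 named genes lost their call, among them Canx, Kdr, Egfl7, Pou5f1, Rpl39 and Utp14b besides those given above. Of the list counts, 4 fell by over 1.5 times when genes had to be detected on all 6 arrays, because fewer were tested: Leydig 6, endothelial 7, macrophage 7 and red blood cell 2 lower. With the percentile over the probes detected on all 12 arrays, 4 replication and 7 ribosomal protein genes were lower, against 2 and 4. With slide as a fixed block 1 ribosomal protein gene, 5 stress genes and 7 endothelial genes were lower, against 4, 8 and 11, and the lower differentiating gene and the higher endothelial gene lost their calls. Without 1 KIT+ array the fitted folds of Hba-a1 and Hbb-bt, 81.2 and 80.5, were 205 and 175 (replicate 3), 34.3 for Hba-a1 (replicate 2) and 50.8 for Hbb-bt (replicate 1). The cause of the other changes was not tested. Genes near background on either side have only bounds, and cross-hybridisation of paralogs is not resolved.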

Other observations

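Of the 6766 genes tested without a RefSeq symbol, 32.9% were higher and 44.9% lower, against 47.2% and 40.3% of the 17928 genes with a symbol. These names include long noncoding RNA probes and clone names, whose content cannot be checked in the files.

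Of 5910 genes with more than 1 probe tested, 665 had another probe called the opposite way. Among the genes named above these were Itgam, Hsph1 and Tbp. Itgam, an integrin of macrophages, had a ratio of −2.91 by its brightest probe and 1.18 by another.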
